A study of Mus musculus with 12 samples.

Results

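Super-enhancers (SEs) of mouse embryonic stem cells (ESCs) are divided into short stretches by their CpG methylation. PU subregions are unmethylated in ESCs and stay so in epiblast stem cells (EpiSCs), whereas DM subregions are unmethylated in ESCs and gain methylation in EpiSCs. Described here are the DM subregions that lie in the same block of SE chromatin as at least 1 PU subregion. PU and DM subregions were sorted along each chromosome, and neighbours were chained into a block by a fixed maximum gap. The largest gap inside a block was 11724 bp and the smallest between blocks of a chromosome 13001 bp. Of 671 subregions in 225 blocks, 277 DM subregions in 106 blocks met this rule, which uses position and methylation type and no ChIP-seq value. They are set beside the 183 PU subregions, 152 of which share their blocks, and beside the 211 DM subregions in 96 blocks without PU.

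The ChIP-seq data cover MED1 and H3K27ac in Esrrb-/- ESCs, labelled Esrrb knock-out, and in Esrrb f/f control ESCs, labelled wild-type, both grown on gelatin in serum/LIF. The study describes 12 libraries, 2 replicates each of MED1, H3K27ac and input DNA per genotype. The deposited values are 1 RPKM (the read density per kilobase, normalised by a total that the sources used here do not define) per subregion, antibody and genotype, so the genotypes are set side by side without a replicate check and without a test. The study calls the replicates independent experiments, but the deposited values do not separate them. Both cell populations had been described before, how many lines or clones they stand for is not given in the sources used here, and line and genotype cannot be told apart. Subregions of type PU or DM only were measured, all within SEs, and their ChIP-seq values give no check of the deletion itself. The 9 subregions nearest to Esrrb are DM subregions in blocks without PU.

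MED1 is a subunit of Mediator, the co-activator that links enhancer-bound transcription factors to RNA polymerase II at promoters. H3K27ac is an acetylated histone residue found on the nucleosomes of active enhancers and promoters. ESRRB is an orphan nuclear receptor of the naive pluripotency network, and it binds DNA as a monomer at an extended half-site that contains AAGGTCA.

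The AAGGTCA sequence was searched on both strands of every subregion in the mm9 genome. It was present in 86 of the 277 DM subregions in blocks with PU (31.0%), with 115 sites in all. The share was 28.4% for PU subregions, 46.4% for DM subregions in blocks without PU and 35.2% for all 671 subregions. The longer form TCAAGGTCA lay in 28 of the 277 (10.1%), against 10.3% of all 671, 3.83% of PU subregions and 16.1% of DM subregions in blocks without PU. Sites are shown for the DM subregions with the lowest and highest changes of MED1 or H3K27ac that held one, at most 2 for each, because these are the subregions whose values are described next. Each sequence is read 5′ to 3′ along the strand of the motif, which is in capitals, with 11 bases on either side.
5730419I09Rik-proximal site 1, chr6:143056669-143056675, plus strand: ttataagtgaaAAGGTCAgcttaggaact
5730419I09Rik-proximal site 2, chr6:143056692-143056698, plus strand: ggaactttgggAAGGTCAtgaaacccttg
Sec14l1-proximal site 1, chr11:116943977-116943983, minus strand: aggttttgctaAAGGTCAcgtctctggca
Sec14l1-proximal site 2, chr11:116943995-116944001, plus strand: tagcaaaacctAAGGTCAgagagtaagtg
Jam2 intron site 1, chr16:84776632-84776638, minus strand: cagcacctgtcAAGGTCAtaaaaaacaag
Jam2 intron site 2, chr16:84779070-84779076, plus strand: tgaagagcataAAGGTCAcaaaggagact
Jam2 intron site 3, chr16:84779698-84779704, minus strand: ttactgagttcAAGGTCAtcctgggatgg
Epb4.9 intron site, chr14:71023651-71023657, plus strand: atacggactaaAAGGTCAggctgcagcag
Plekha4-overlapping site, chr7:52807532-52807538, plus strand: ccaacaaagcgAAGGTCAaaggtctgaca

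Jam2 intron sites 1 and 3 carry the longer form. Proximal sites are named after the nearest protein-coding gene, with the subregion 31303 bp from Sec14l1 and 7498 bp from 5730419I09Rik. The pairs printed for the Sec14l1-proximal and 5730419I09Rik-proximal subregions lie close together, whereas the printed Jam2 sites are spread over a pair of DM subregions. A match describes the letters only, and ESRRB occupancy was not analysed here.

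The DM subregions in blocks with PU were short pieces between, beside or beyond their PU neighbours. Their median length was 797 bp, from 59 to 5402 bp. By the GENCODE annotation of mm9, 141 were intergenic, 99 lay in introns, 20 overlapped an exon and 17 overlapped a transcription start site. The nearest PU subregion was a median of 574 bp away, 78 lay within 100 bp of it, and 55 had a PU subregion on both sides. Of the 106 blocks, 34 held 1 such DM subregion, 26 held 2 and 46 held 3 or more, up to 10. Their GC content had a median of 49.0%, below the 52.8% of PU subregions and close to the 48.9% of DM subregions in blocks without PU.

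In control ESCs the DM subregions in blocks with PU carried less MED1 than either of the other sets. Their median MED1 RPKM was 441 in control and 450 in Esrrb-/- ESCs. PU subregions had medians of 679 in control and 620 in Esrrb-/- ESCs, and DM subregions in blocks without PU had 746 and 470. Compared one by one with the nearest PU subregion, MED1 was lower at the DM subregion in 212 of 277 cases (76.5%) in control ESCs, with a median ratio of 0.630. In Esrrb-/- ESCs it was lower in 221 of 277 (79.8%), with a median ratio of 0.677. The 277 DM subregions share 135 nearest PU subregions, so these are not independent pairs.

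H3K27ac differed less between the sets in control ESCs. The median H3K27ac RPKM of the DM subregions in blocks with PU was 526 in control and 554 in Esrrb-/- ESCs. PU subregions had medians of 506 and 714, and DM subregions in blocks without PU 529 and 504. The median ratio of DM to nearest PU subregion was 1.01 in control ESCs and 0.762 in Esrrb-/- ESCs, and the DM subregion was the lower one in 49.1% and 65.0% of cases. The plot of levels by genotype shows both marks at each of the 277 DM subregions.

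**Figure D1:**
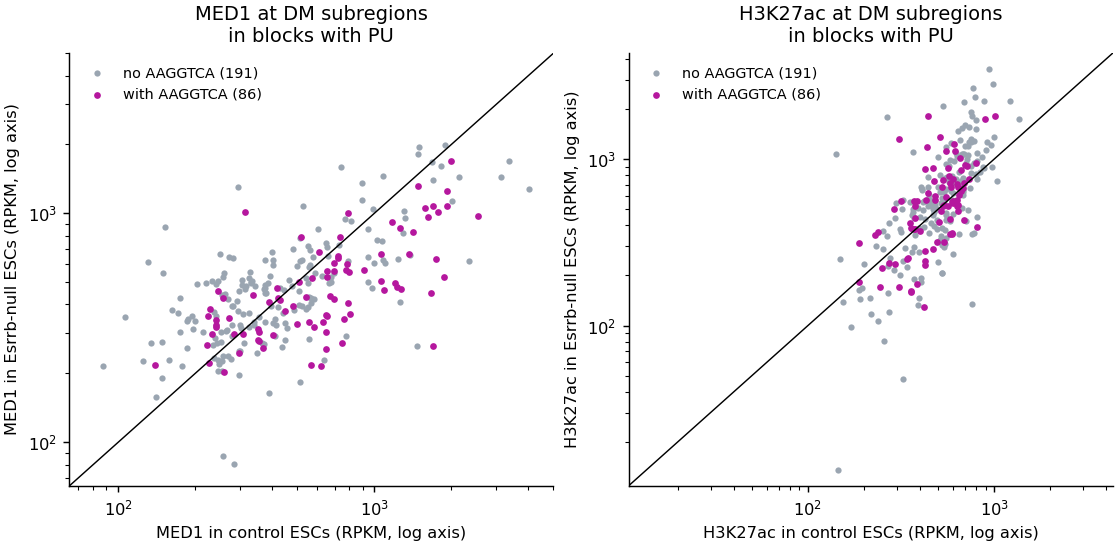
RPKM in Esrrb-/- (vertical) against control ESCs (horizontal) at the 277 DM subregions in blocks with PU, for MED1 (left) and H3K27ac (right), both axes logarithmic. Points are subregions, coloured by whether they hold AAGGTCA, and the line marks equal values, with most of the 86 subregions that hold the sequence below it for MED1.

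For each subregion 1 RPKM was added to both values and the log2 ratio of Esrrb-/- to control taken, here called the log2 fold change. For MED1 its median was -0.04 at the DM subregions in blocks with PU. Their middle part, from the 25th to the 75th percentile, ran from -0.50 to 0.43. The median was -0.03 at PU subregions, -0.34 at DM subregions in blocks without PU and -0.14 over all 671. The median of DM subregions in blocks with PU was therefore 0.29 above that of DM subregions in blocks without PU, and this difference ranged from 0.16 to 0.42 over the alternative settings. The sign of the median at the DM subregions in blocks with PU depended on the scaling, for both marks. With the reads recovered from the RPKM scaled to mapped read pairs, every MED1 log2 fold change shifted by about -0.77, and scaled to the reads in all 671 subregions by about 0.28. For H3K27ac these shifts were about -0.33 and -0.48. Directions and fold changes from here on are those of the deposited scaling, and a shift common to all subregions leaves differences between sets nearly as they are.

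Of the 277 DM subregions, 148 (53.4%) had less MED1 in Esrrb-/- than in control ESCs, against 58.0% of all 671, and 129 (46.6%) had more, against 42.0%. MED1 was at least 1.5-fold lower at 60 of them (21.7%), where 26.8% of all subregions were, and at least 1.5-fold higher at 55 (19.9%), where 14.8% of all subregions were. In blocks without PU, 42.7% of DM subregions were at least 1.5-fold lower and 9.0% at least 1.5-fold higher. PU subregions had 16.4% and 13.7%. The DM subregions in blocks with PU thus had differences in both directions. The SD of their MED1 log2 fold changes was 0.78, against 0.66 at PU subregions and 0.76 at DM subregions in blocks without PU, so this spread was not particular to them.

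Few reads lay behind many of these values. The whole reads recovered from the RPKM had a median of 160 per DM subregion for MED1 in control and 78 in Esrrb-/- ESCs, down to 5 and 4. For H3K27ac the medians were 549 and 556. From these reads a 95% interval (Clopper-Pearson) was computed for each ratio, which covers counting error only. The MED1 interval lay below 0 at 87 of the 277 DM subregions, where it did at 39.5% of all 671, and above 0 at 62, where it did at 20.6% of all. It included 0 at the other 128.

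**Figure D2:**
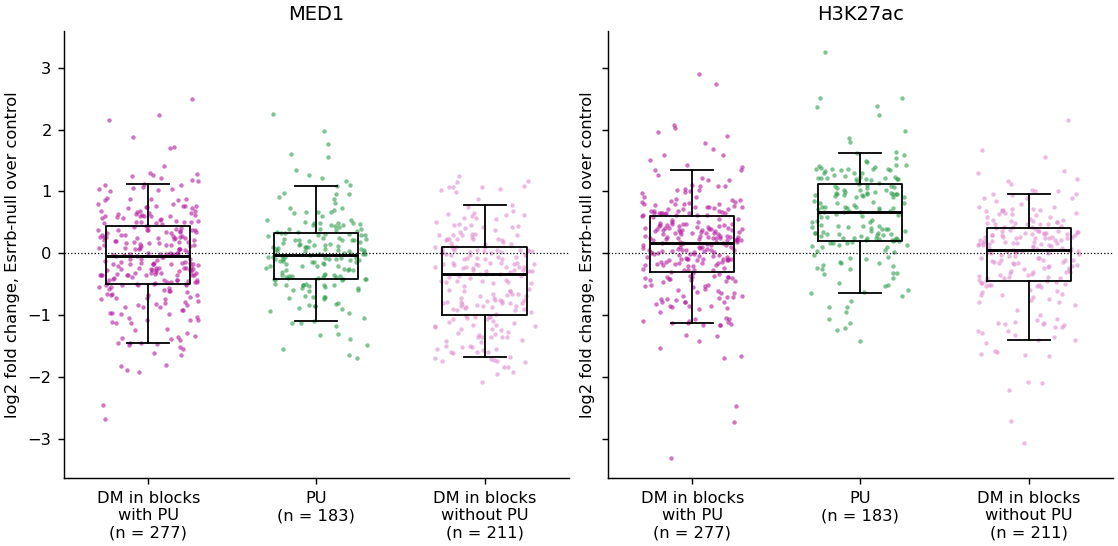
Log2 fold change of MED1 (left) and H3K27ac (right) RPKM, Esrrb-/- over control ESCs, at DM subregions in blocks with PU (n = 277), PU subregions (n = 183) and DM subregions in blocks without PU (n = 211). Points are subregions, boxes span the 25th to 75th percentiles with the median as a line, and whiskers reach the 5th and 95th percentiles; the MED1 medians are -0.04, -0.03 and -0.34.

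H3K27ac was higher in Esrrb-/- ESCs at more of the DM subregions in blocks with PU than not, but by less than at PU subregions. The median log2 fold change was 0.17, against 0.66 at PU subregions, 0.06 at DM subregions in blocks without PU and 0.24 over all 671. It was higher at 167 of 277 (60.3%), against 64.7% of all subregions, and lower at 110 (39.7%), against 35.3%. An increase of at least 1.5-fold was found at 71 (25.6%), where 30.6% of all subregions had one, and a decrease of that size at 46 (16.6%), where 15.1% had one. PU subregions were at least 1.5-fold higher in 54.6%. The counting interval lay above 0 at 133 of the 277, where it did at 53.4% of all subregions, and below 0 at 78, where it did at 26.4%.

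The marks did not differ in the same direction at every DM subregion. Both were lower at 76 of the 277 (27.4%), against 25.3% of all 671, and both were higher at 95 (34.3%), against 32.0%. MED1 was lower and H3K27ac higher at 72 (26.0%), against 32.6% of all, and the reverse held at 34 (12.3%), against 10.0%. Across the 277 DM subregions the changes of MED1 and H3K27ac had a Pearson's r of 0.26 and a Spearman's rho of 0.25. All points come from the same libraries and share 106 blocks, so the correlation is given as a description.

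The MED1 change of a DM subregion went with that of its nearest PU subregion. Over the 277 pairs Pearson's r was 0.54 and Spearman's rho 0.54. For the 78 DM subregions within 100 bp of PU r was 0.78, and for the 132 more than 1000 bp away it was 0.36. Sonicated fragments and reads can span adjacent subregions, and how far this enters the values at short distances was not tested. The difference of the log2 fold change, DM minus nearest PU, had a median of 0.04 for MED1. For H3K27ac this difference had a median of -0.53, and the DM subregion had the lower change in 203 of 277 pairs (73.3%). The H3K27ac changes of the pairs had r of 0.28 over all 277, 0.45 within 100 bp and 0.11 beyond 1000 bp.

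**Figure D3:**
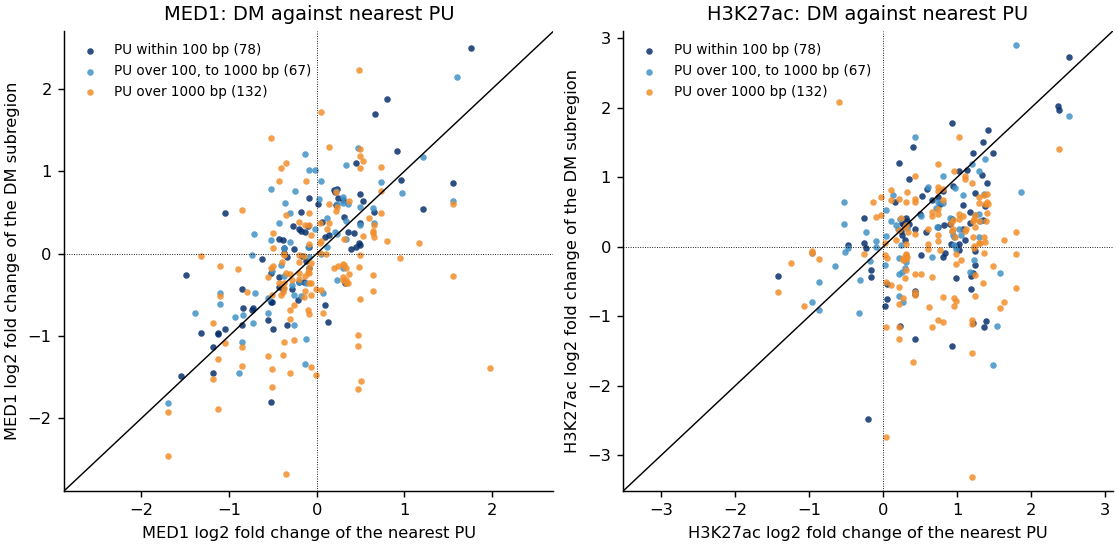
Log2 fold change (Esrrb-/- over control ESCs) of each DM subregion in a block with PU (vertical) against that of its nearest PU subregion (horizontal), for MED1 (left) and H3K27ac (right). Points are coloured by the distance to PU (78 within 100 bp, 67 farther but within 1000 bp, 132 beyond), the diagonal marks equal change, and for H3K27ac 203 of 277 points lie below it.

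With distance from PU the medians shifted. MED1 had a median of 0.07 at the 78 DM subregions within 100 bp of PU and 0.17 at the 67 beyond that and up to 1000 bp away. It was -0.17 both at the 73 more than 1000 and up to 5000 bp away and at the 59 farther off. The 55 DM subregions with PU on both sides had a median of 0.24 and the 222 with PU on one side -0.15. For H3K27ac the medians over the same 4 distance classes were 0.29, 0.17, 0.10 and 0.05, so the nearer classes had the higher medians. Length also varied among the DM subregions, and MED1 had a median change of 0.13 at the 92 shorter than 500 bp, against -0.21 at the 65 of 1500 bp or more. Ordered by control MED1 RPKM into 4 groups of 69 or 70, the medians were 0.60, 0.07, -0.29 and -0.68 from the lowest control level to the highest, a comparison in which both sides contain the control value.

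The DM subregions with the AAGGTCA sequence had lower MED1 changes than those without it. The median log2 fold change of MED1 was -0.36 at the 86 with the sequence and 0.13 at the 191 without, a difference of -0.49. Less MED1 in Esrrb-/- ESCs was found at 75.6% of the first and 43.5% of the second. Longer subregions held the sequence more often, and the difference was -0.49 under 500 bp (7 with the sequence, 85 without), -0.48 from 500 to under 1500 bp (37 and 83) and -0.43 from 1500 bp (42 and 23). Of the 28 with the longer form TCAAGGTCA, a form chosen after the data were seen, 27 had lower MED1, with a median of -0.64, where 58.0% of all 671 subregions had lower MED1. Of the 34 DM subregions in blocks without PU that hold this form, 31 had lower MED1, with a median of -0.91. Of the 7 PU subregions that hold it, 5 had lower MED1, with a median of -0.28. The 28 had a median control MED1 RPKM of 762, against 441 at all 277, and 15 of them were in the group with the highest control level. No split by level was made for the longer form. At the 23 DM subregions in blocks with PU that held 2 or more AAGGTCA sites the median was -0.66.

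The same comparison was made by level, by distance and in the other sets. Among DM subregions at or below the median of mean MED1 RPKM, MED1 had a median change of -0.01 with the sequence (32) and 0.26 without it (107). Above that median it was -0.70 (54) and -0.07 (84). Within 1000 bp of PU it was -0.55 (44) and 0.26 (101), and farther away -0.32 (42) and -0.11 (90), so the difference was smaller far from PU. PU subregions had medians of -0.08 with and -0.02 without the sequence, and DM subregions in blocks without PU had -0.66 and -0.10. For H3K27ac the medians of the DM subregions in blocks with PU were 0.05 with and 0.22 without the sequence. By length this H3K27ac difference was 0.30 under 500 bp, -0.31 from 500 to under 1500 bp and -0.04 from 1500 bp, so its sign varied.

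GC content went with the change of H3K27ac. Across the 277 DM subregions the H3K27ac log2 fold change and GC content had a Pearson's r of 0.43 and a Spearman's rho of 0.47. Split by GC content into 3 groups of 91 to 94, the subregions had medians of -0.11, 0.10 and 0.66 from the lowest GC content to the highest. An increase of at least 1.5-fold was found at 4.26%, 17.6% and 55.4% of them. For MED1 the correlation with GC content had an r of 0.05. PU subregions, which had more GC, had an r of 0.57 for H3K27ac and DM subregions in blocks without PU 0.26, and the part of base composition in the H3K27ac values was not tested.

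**Figure D4:**
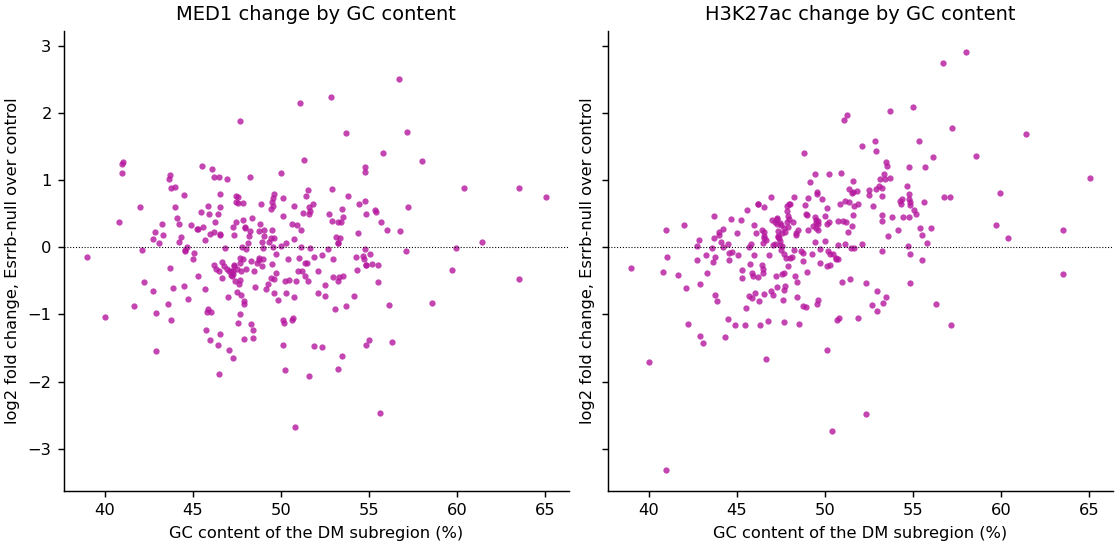
Log2 fold change of MED1 (left) and H3K27ac (right) RPKM, Esrrb-/- over control ESCs, against the GC content (%) of the 277 DM subregions in blocks with PU. Points are subregions; Pearson's r is 0.05 for MED1 and 0.43 for H3K27ac.

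The lowest and highest changes were then read among DM subregions of at least 500 bp whose mean RPKM was at or above the median of the 277. This mean was taken over both genotypes, so a subregion could pass through a high value in a single genotype. These are extremes by choice and are described without a test. The lowest MED1 change was at chr6:143056126-143057029, an intergenic DM subregion 7498 bp from 5730419I09Rik that holds the first pair of sites printed above. Its MED1 RPKM was 1699 in control and 264 in Esrrb-/- ESCs. This gave a log2 fold change of -2.68, with counting error limits of -3.11 and -2.29. Its H3K27ac RPKM was 810 in control and 388 in Esrrb-/- ESCs, for a log2 fold change of -1.06. The PU subregion of this block, 7017 bp away, had a MED1 log2 fold change of -0.35 and an H3K27ac log2 fold change of 1.20. The DM and PU subregions of this block thus had H3K27ac differences of opposite sign.

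A block on chromosome 11 held 3 of the 6 lowest MED1 changes, all intergenic. Their nearest protein-coding gene, Sec14l1, was 22921 to 31303 bp away. At chr11:116943546-116945178, which has 3 AAGGTCA sites, MED1 RPKM was 1870 in control and 529 in Esrrb-/- ESCs, for a log2 fold change of -1.82. At chr11:116949953-116950511 it was 1464 and 264, a log2 fold change of -2.46, and no site was found. At chr11:116952512-116953560, also without a site, it was 2342 and 617, a log2 fold change of -1.92. H3K27ac was higher in Esrrb-/- ESCs at all 3, with log2 fold changes of 0.37, 0.67 and 0.81. The PU subregion of the block had a MED1 log2 fold change of -1.70 and an H3K27ac log2 fold change of 0.11. MED1 was therefore lower across this whole block while H3K27ac was not.

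Jam2 encodes a junctional adhesion molecule. In its intron, at chr16:84778933-84780629, MED1 RPKM was 1665 in control and 450 in Esrrb-/- ESCs. This gave a log2 fold change of -1.88, with counting error limits of -2.12 and -1.66. This DM subregion holds 4 AAGGTCA sites, and its H3K27ac RPKM was 642 in control and 490 in Esrrb-/- ESCs, for a log2 fold change of -0.39. A neighbour in the same gene, chr16:84774833-84776658, had MED1 RPKM of 793 and 406 and a log2 fold change of -0.96. Its H3K27ac RPKM was 691 and 429, a log2 fold change of -0.69. The PU subregion between DM subregions of this block had a MED1 log2 fold change of -1.12 and an H3K27ac log2 fold change of 0.43. Here too H3K27ac was lower at the DM subregions named and higher at PU.

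At chr17:29209667-29210719, in an intron of Gm16197 and 17204 bp from Cdkn1a, a cell cycle inhibitor, no AAGGTCA was found. MED1 RPKM there was 1257 in control and 408 in Esrrb-/- ESCs, for a log2 fold change of -1.62. H3K27ac RPKM was 707 and 422, a log2 fold change of -0.74. The nearest PU subregion had log2 fold changes of -0.51 for MED1 and 0.96 for H3K27ac. The 4 lowest H3K27ac changes by the same rule were at this subregion, at the one near 5730419I09Rik and at both in Jam2.

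The highest changes of both marks lay in an intron of Epb4.9, in a block within 20000 bp of Fgf17, which encodes a fibroblast growth factor. At chr14:71027877-71028738 MED1 RPKM was 153 in control and 872 in Esrrb-/- ESCs. This gave a log2 fold change of 2.50, with counting error limits of 2.07 and 2.97. H3K27ac RPKM there was 267 and 1783, a log2 fold change of 2.74. At chr14:71023409-71026040, which holds 1 AAGGTCA site, MED1 RPKM was 312 and 1017, a log2 fold change of 1.70. H3K27ac RPKM there was 442 and 1813, a log2 fold change of 2.03. The 4 PU subregions of the block were higher for both marks as well, so the whole block had the same direction.

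The other highest changes were smaller for MED1 than for H3K27ac at all 4 sites. The intergenic chr4:118745064-118745666 lay 35649 bp from its nearest protein-coding gene, Slc2a1, which encodes a glucose transporter. It had MED1 RPKM of 899 in control and 1355 in Esrrb-/- ESCs, for a log2 fold change of 0.59. H3K27ac RPKM there was 772 and 2652, a log2 fold change of 1.78. At an exon of Tsc22d1, chr14:76906096-76906733, the MED1 RPKM of 602 and 858 gave 0.51 and the H3K27ac RPKM of 530 and 2074 gave 1.97. At a transcription start site of Gm16022, which overlaps Plekha4, chr7:52806930-52807591, the MED1 RPKM of 516 and 788 gave 0.61 and the H3K27ac RPKM of 315 and 560 gave 0.83. In Myo10, chr15:25692941-25693519 had MED1 RPKM of 391 and 533, a log2 fold change of 0.45 whose counting interval (-0.02 to 0.90) included 0. Its H3K27ac RPKM of 638 and 1479 gave 1.21. Scaled to mapped read pairs, the MED1 changes of all 4 turned, to -0.18 near Slc2a1, -0.26 at Tsc22d1, -0.16 at Plekha4 and -0.32 in Myo10.

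Within blocks the DM subregions were partly alike. Of 72 blocks with 2 or more, all DM subregions had lower MED1 in 18, all had higher MED1 in 13, and both directions occurred in 41. For H3K27ac these numbers were 11, 27 and 34. The intraclass correlation over blocks was 0.40 for both MED1 and H3K27ac, and the median range within a block was 0.90 log2 units for MED1 and 0.73 for H3K27ac.

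The blocks with the most such DM subregions, 10, 8 and 7, are described next. A further block, near Zbtb34 on chromosome 2, also held 7, and the tie was broken by chromosome name. Its MED1 log2 fold changes ran from -1.05 to 0.76 and its H3K27ac log2 fold changes from -1.09 to 1.03. In the block of Myo10, an unconventional myosin gene on chromosome 15, the MED1 log2 fold changes of 10 DM subregions ran from -0.36 to 0.45. The 3 DM subregions at its low-coordinate end, at least 11730 bp from PU, had H3K27ac log2 fold changes of -0.51, -2.74 and -1.16, and the other 7 lay between 0.10 and 1.21. At the lowest of these, chr15:25658336-25658585, H3K27ac had 112 recovered reads in control and 14 in Esrrb-/- ESCs. In the block near Sall1, a zinc-finger transcription factor gene on chromosome 8, MED1 ran from -0.61 to 0.07 and H3K27ac from -0.85 to 0.05 over 8 DM subregions. In the Fam113b block on chromosome 15, MED1 was higher at 6 of 7 DM subregions, up to 1.29, of which 1 stayed higher when scaled to mapped read pairs, and H3K27ac was higher at all 7, from 0.10 to 1.02.

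**Figure D5:**
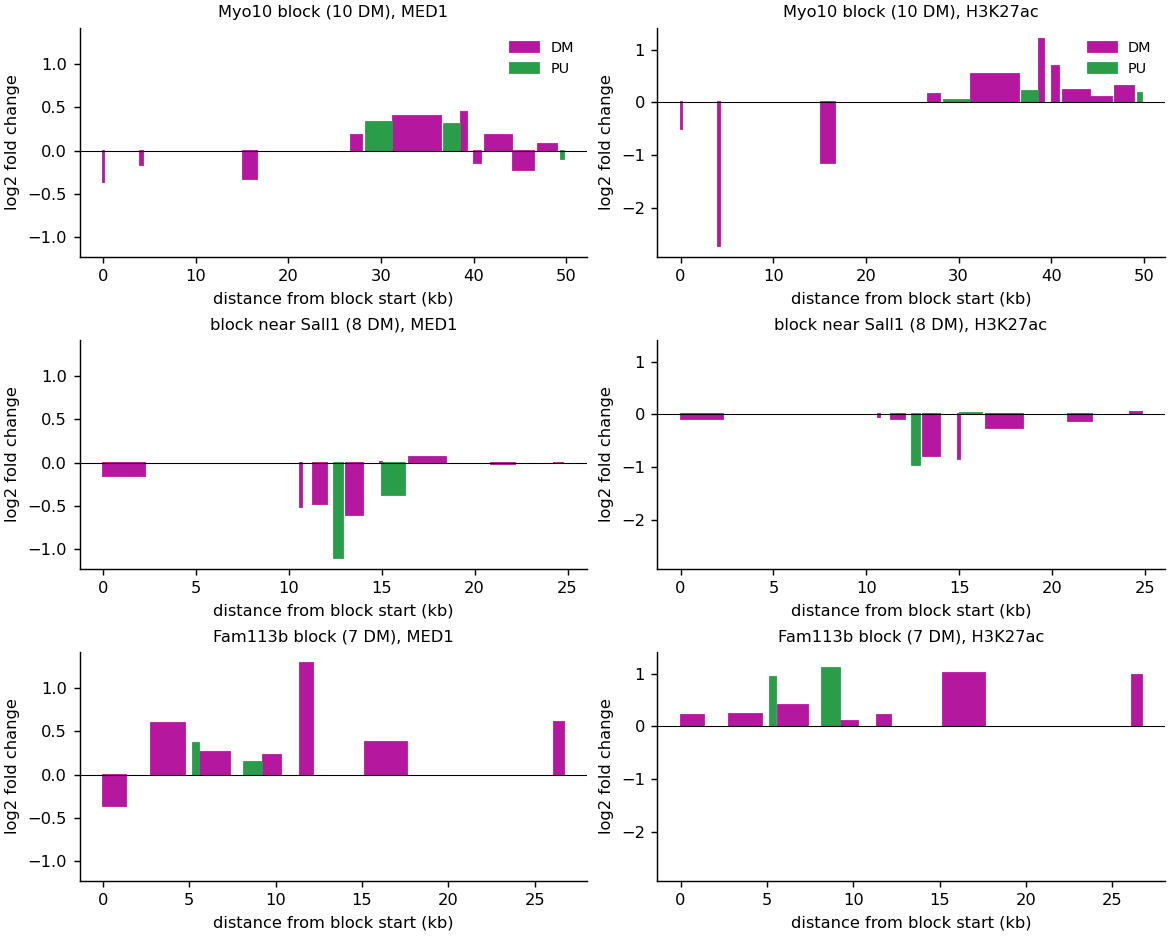
Log2 fold change (Esrrb-/- over control ESCs) of MED1 (left) and H3K27ac (right) along the Myo10 block (10 DM), the block near Sall1 (8) and the Fam113b block (7, tied with a block near Zbtb34 that is not drawn), against distance from the block's start (kb). Bar widths are subregion lengths, DM and PU are coloured, and in the Myo10 block the 3 DM subregions before 20 kb have H3K27ac values below 0 while all others lie above it.

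Lists of genes known in ESC biology were placed on the blocks at up to 20000 bp. Of 85 listed genes, 19 had such a block, with 46 DM subregions whose median MED1 log2 fold change was -0.22. MED1 was at least 1.5-fold lower at 15 and at least 1.5-fold higher at 10 of these, where 26.8% and 14.8% of all 671 subregions were. The general pluripotency genes Pou5f1, Nanog, Sall4, Utf1 and Tdgf1 had 14 DM subregions with a median of 0.07, 1 at least 1.5-fold lower and 4 higher. The list labelled naive pluripotency was met at Socs3, Fgf4 and Mybl2, with 8 DM subregions from -1.52 to 0.49, 6 of them at least 1.5-fold lower. Of these 6, 4 lay in the single Mybl2 block and the others in the single Fgf4 block. The DM subregion near Socs3 was at -0.21. Chromatin and transcription genes (Tet1, Smarcad1, Mycn, Klf13 and Nfkbia) had 13, with a median of -0.65, 7 at least 1.5-fold lower and 1 higher. Signalling genes (Spry2, Id1, Smad7, Fgf17 and Igfbp2) had 10, with a median of 0.83, 1 lower and 5 higher. Of these 5, 3 lay in the single block near Fgf17, and 1 near Smad7 had 9 MED1 reads in control and 13 in Esrrb-/- ESCs. DM subregions of 1 block are not separate loci, so these list counts describe few blocks. The median over all 671 subregions was -0.14.

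Near Pou5f1, which encodes OCT4, the core POU factor of pluripotency, the DM subregion chr17:35639909-35640349 had MED1 RPKM of 513 in control and 779 in Esrrb-/- ESCs. The log2 fold change was 0.60, and -0.17 when scaled to mapped read pairs. Its H3K27ac RPKM was 682 and 770, a log2 fold change of 0.18. Near Nanog, a homeobox factor of the same network, 4 DM subregions had MED1 log2 fold changes of 0.88, -0.35, -0.09 and 0.24 in order of position. Their H3K27ac log2 fold changes were -0.40, 0.44, -0.12 and -0.21, and the MED1 counting interval of each of the 4 included 0.

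Tet1 encodes an enzyme that oxidises 5-methylcytosine. Its 3 intronic DM subregions on chromosome 10 all held AAGGTCA. At chr10:62347817-62348145 MED1 RPKM was 581 in control and 317 in Esrrb-/- ESCs, for a log2 fold change of -0.87. At chr10:62350451-62355244 it was 430 and 417, a log2 fold change of -0.04. At chr10:62356421-62361482 it was 1415 and 826, a log2 fold change of -0.77. The H3K27ac log2 fold changes were -0.41, -0.61 and -0.07, so the middle subregion had the smallest MED1 change and the lowest H3K27ac change. The PU subregion nearest to the first and second had a MED1 log2 fold change of -0.34, and the PU subregion nearest to the third had -0.94.

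Smarcad1 encodes a chromatin remodeller of the SNF2 family. Of its neighbouring DM subregions, chr6:64970834-64971821 had MED1 RPKM of 1295 and 822, a log2 fold change of -0.65. The other, chr6:64972895-64975479, had 1923 and 1075, a log2 fold change of -0.84. Their H3K27ac log2 fold changes were 0.02 and -0.02, so MED1 was lower at both and H3K27ac was near its control level. The PU subregion of the block had a MED1 log2 fold change of -0.72 and an H3K27ac log2 fold change of -0.48.

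Near Klf13, a Krüppel-like factor gene, MED1 log2 fold changes were -0.28 and -0.73 and H3K27ac log2 fold changes 0.15 and 0.85. At the second of these, chr7:71101006-71101757, MED1 RPKM was 555 and 335 and H3K27ac RPKM was 1006 and 1809, so the marks differed in direction. At the start of Otx2, a homeobox gene of the primed state, chr14:49280630-49282658 had MED1 RPKM of 226 and 222, a log2 fold change of -0.02. Its H3K27ac RPKM was 308 and 170, a log2 fold change of -0.86. At Mybl2, a MYB-family gene, the 4 DM subregions had MED1 log2 fold changes of -1.45, -1.13, -0.85 and -1.52, and each held AAGGTCA. The PU subregion of the block was at -1.18, so MED1 was lower across this block. The H3K27ac log2 fold changes of the 4 were -0.27, -0.05, 0.46 and -0.71. No DM subregion in a block with PU was found within 20000 bp of Sox2, Lefty1, Med13l or Spry4. This distance limit does not show that their SEs hold none. Farther off, 2 DM subregions with Sox2 as the nearest protein-coding gene had MED1 log2 fold changes of -0.74 and -0.66. A block with a DM subregion nearest to Med13l held 2, at -0.46 and 0.26.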

How the data were processed

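MED1, H3K27ac and input ChIP-seq libraries of Esrrb-/- and Esrrb f/f ESCs were grouped by the labels. The authors trimmed reads with Trimmomatic, aligned them to mm9 with Bowtie2, removed duplicates with Picard and blacklisted regions, and counted reads per subregion without calling peaks. They deposited RPKM, with 1 value per subregion, antibody and genotype. How replicates were combined and which total was used are not given in the sources used here, and input values were not analysed here.

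The deposited RPKM were joined on coordinates and type. Fold changes used a pseudocount of 1 RPKM, which understates changes at low values. RPKM multiplied by subregion length (End minus Start) gave whole reads for 100% of values within 0.001, with implied totals of 424897 and 230504 reads for MED1 and 1396982 and 1183707 for H3K27ac in control and Esrrb-/- ESCs. Of these, 44.3% to 68.7% lay in the 671 subregions. The implied totals were far below the mapped read pairs that the study reports for these libraries. Intervals and low counts reflect counting error only, and PCR reads are not independent molecules.

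Positions came from GENCODE and sequences from the genome of the same build, where 100% of subregion starts lay on a CpG when counted from 1. Named subregions were those within 20000 bp of listed genes, the 6 lowest and 6 highest MED1 and 4 lowest and 4 highest H3K27ac changes among those of at least 500 bp with mean RPKM at or above the median, and all those in the 3 largest blocks. Members and lists were chosen with earlier results of these data known. Alternatives covered the pseudocount, scaling, centring, filters on length and level, the chaining distance, means, 1 value per block, chromosome X and length classes. The functions were tested on simulated data. Versions were pysam 0.24.0, scipy 1.17.1, pandas 2.3.3, numpy 2.4.6 and matplotlib 3.10.9 under Python 3.11.15.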

Additional observations from a re-analysis of the deposited data

How the results depend on the processing

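The 12 summary values were recomputed under 15 settings, 2 of them chosen after the data were seen (subregions over 1000 bp from PU, and TCAAGGTCA in place of AAGGTCA). Of 146 alternative values, 120 moved by less than the limits used (the interval of the median, or 1.5 times for a count) and 26 moved further. The interval of the median treats subregions as independent, although they share libraries and blocks, so this tally is only a rough guide. Of the medians and differences, 7 values changed sign, 3 of them for the H3K27ac median, 2 for the MED1 median and 2 for the MED1 difference from the nearest PU. Scaled to the recovered reads in all subregions, the MED1 median was 0.23 with 85 subregions at least 1.5-fold higher, and the H3K27ac median was -0.31 with 93 lower and 23 higher. Scaled to mapped read pairs, the MED1 median was -0.81 with 174 lower and 7 higher, and the H3K27ac median was -0.15 with 74 lower and 31 higher. Centred on the median of all subregions, the medians were 0.10 for MED1 and -0.071 for H3K27ac, with 37 subregions higher for H3K27ac. With the lowest 25% by mean RPKM left out, the MED1 median was -0.24 with 27 higher, and the H3K27ac median was 0.28 with 19 lower. With at least 500 bp, 27 were higher for MED1, 27 lower and 45 higher for H3K27ac, and the H3K27ac difference from the nearest PU was -0.66. Over 1000 bp from PU, the MED1 median was -0.17, the differences from the nearest PU were -0.13 for MED1 and -0.66 for H3K27ac, and the MED1 difference with AAGGTCA was -0.22. Fewer subregions remain in the filtered settings, but the share at least 1.5-fold higher for MED1 also went from 19.9% to 14.6% with at least 500 bp and to 15.2% with the lowest 25% left out, and the cause was not tested. Shares over all subregions were not computed under these settings. Scaling and centring move every subregion, so the counts under them are not a result about these DM subregions alone.

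Of the 81 named subregions, the MED1 change turned its sign at 26 under mapped-pair scaling, at 12 under recovered-read scaling and at 4 under centring, and the H3K27ac change at 16, 24 and 14. Those with a MED1 change of at least 1.5-fold that turned were at Mycn (-0.038), a pair in the Fam113b block (-0.17 and -0.17), Pou5f1 (-0.17), Sall4 (-0.16), Slc2a1 (-0.18) and Plekha4 (-0.16). The MED1 difference between DM subregions in blocks with and without PU kept its sign under each setting. No paired analysis was possible because the deposited columns carry no replicate numbers and hold 1 value per condition. For the same reason no replicate could be left out. Depth limits MED1 in Esrrb-/- ESCs most, with a median of 78 reads per DM subregion.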

Other observations

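The lowest H3K27ac change of all 277 DM subregions lay at a short subregion with few reads. The subregions named here were chosen after their values were seen. At chr6:143052642-143052890, near 5730419I09Rik, 50 recovered H3K27ac reads in control and 4 in Esrrb-/- ESCs gave a log2 fold change of -3.31, while the MED1 log2 fold change was 1.10. This subregion lies in the same block as the DM subregion with the lowest MED1 change. In the Jam2 block, chr16:84772807-84773853 had log2 fold changes of -0.98 for MED1 and -1.33 for H3K27ac, and chr16:84769460-84771456 had -1.29 and -0.70.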
